A study of Mus musculus with 6 samples.

Results

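The genes of the major histocompatibility complex (MHC) class I presentation pathway were followed in I1DN leukemia cells from mice treated with AG636 or vehicle. The 10 genes were chosen by name: H2-K1, H2-D1, B2m, Tap1, Tap2, Tapbp, Psmb8, Psmb9, Psmb10 and Nlrc5. They are 10 of the 54838 genes in the deposited count table, and all 10 were among the 11092 genes with enough reads to be tested. I1DN is a murine acute myeloid leukemia (AML) on a C57BL/6 background, made by transducing fetal liver progenitors, and all samples of both groups carried the genotype IDH1R132H; DNMT3AR882H; NrasG12D. AG636 is an inhibitor of dihydroorotate dehydrogenase (DHODH), the mitochondrial enzyme of de novo pyrimidine synthesis. Transplanted Ptprca recipients received either vehicle (3 mice) or AG636 by mouth, b.i.d., at 100 mg/kg (3 mice). Immature leukemia cells (cKit+ CD11b- in the study's results) were then isolated by flow sorting. The paper describes this population as enriched in leukemia stem cells. The labels name bone marrow and spleen without saying which tissue each library came from, and the ages of the mice are not given in the sources used here. The model has limits: it descends from a passaged leukemia, the recipients were only sublethally irradiated and so keep blood cells of their own, and the study's sources differ on how long this treatment lasted. The comparison asks how the RNA of these genes differs between leukemia cells exposed to the inhibitor and those that were not.

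MHC class I molecules show short peptides from the inside of a cell to CD8+ T cells. Proteasomes cut the peptides, and the immunoproteasome does so with the inducible subunits encoded by Psmb8, Psmb9 and Psmb10. The transporter made of Tap1 and Tap2 carries the peptides into the endoplasmic reticulum. There tapasin (Tapbp), calreticulin, calnexin and Pdia3 help to load them onto a heavy chain paired with beta-2-microglobulin (B2m). H2-K1 and H2-D1 encode the classical heavy chains of C57BL/6 mice. Nlrc5 is the transactivator of class I promoters, and interferons are known to raise most genes of this pathway.

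Of the 10 genes, 7 lie on chromosome 17 and 2 on chromosome 8, with B2m on chromosome 2 (mm10 coordinates from the count table). The known control elements of class I promoters are shown here for the 3 genes that were called higher, H2-K1, H2-D1 and B2m, and for Tap1 and Psmb9, which were not called. Promoter windows of 300 bases (250 before and 50 after the start) came from RefSeq, build GRCm38.p6, and 8 of the 10 genes were matched. Tap2 and Nlrc5 were not matched. Windows were searched on both strands for GGGATTCCC (an NF-kB site), GAAANNGAA or GAANNGAAA (the interferon response type), TGACG (the core of the CRE type in the SXY module bound by the Nlrc5 and RFX complex) and CCAAT (the NF-Y site), and no matches in the stretches below overlapped. In capitals are the matches, each stretch is written 5′ to 3′, and the first is on the minus strand.
H2-K1, chr17:34000328-34000477: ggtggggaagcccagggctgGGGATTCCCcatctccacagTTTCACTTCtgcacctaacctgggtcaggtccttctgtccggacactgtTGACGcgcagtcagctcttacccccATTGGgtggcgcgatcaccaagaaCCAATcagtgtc
H2-D1, chr17:35262904-35263053: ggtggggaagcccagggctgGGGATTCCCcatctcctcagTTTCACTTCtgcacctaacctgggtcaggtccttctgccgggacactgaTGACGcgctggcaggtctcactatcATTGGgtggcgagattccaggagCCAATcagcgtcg
B2m, chr2:122147537-122147686: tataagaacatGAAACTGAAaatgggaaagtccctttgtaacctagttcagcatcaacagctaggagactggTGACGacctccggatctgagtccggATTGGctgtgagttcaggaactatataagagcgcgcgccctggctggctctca
Tap1 and Psmb9, chr17:34187331-34187555: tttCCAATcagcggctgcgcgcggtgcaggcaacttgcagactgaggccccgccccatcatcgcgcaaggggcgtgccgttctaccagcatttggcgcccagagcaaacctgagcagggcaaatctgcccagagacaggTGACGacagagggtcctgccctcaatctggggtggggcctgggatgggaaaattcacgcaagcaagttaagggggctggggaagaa

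The H2-K1 and H2-D1 windows shared an identical run of 47 bases and had the same 4 kinds of match, with GGGATTCCC, the interferon type and TGACG once each and CCAAT at 2 places. Among the promoters of 27025 genes, GGGATTCCC was found in 0.37%, the interferon type in 14.9%, TGACG in 21.02% and CCAAT in 37.9%. The B2m window held the interferon type, TGACG and CCAAT, without a match to GGGATTCCC. Tap1 and Psmb9 are transcribed away from each other, and their windows overlapped by 275 bases, so that they share the same TGACG and CCAAT matches. The Tapbp window held 2 matches to CCAAT, and the Psmb8 and Psmb10 windows had none of these letters. The windows follow the RefSeq starts, which differ from those of the count table. The RefSeq start lay 3579 bases downstream of the table's for Tapbp, 474 for Psmb8, 434 for Psmb9, 364 for H2-D1, and within 52 bases in either direction for the other 4 genes. For Tapbp, Psmb8, Psmb9 and H2-D1 the windows do not reach the table's start, and may therefore not hold the promoter of the counted gene. Among these, the H2-D1 window held all 4 kinds of match, each before the RefSeq start. In the H2-K1 window the second CCAAT match began 8 bases after the RefSeq start, though still before the table's start. A match is a run of letters, and binding was not measured.

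Reads were counted at the ends of transcripts and are given as CPM (counts scaled to a common library size), which in such libraries do not grow with transcript length. The 6 libraries held 4634963 to 7906589 counts, so that 3 counts correspond to 0.392 to 0.637 CPM. Across all genes, 2368 of 11092 (21.3%) were called, meaning an adjusted p under 0.05 (edgeR's quasi-likelihood test, p adjusted by Benjamini-Hochberg). Of all genes tested, 10.3% were higher with AG636 and 11% were lower, and the median log2 fold change was 0.03. Among the 10 class I genes, 3 were called higher, 0 were called lower and 7 did not pass the test, and DESeq2 and limma-voom gave the same counts. Beside the 10.3% of all genes that were called higher, these are 3 of 10. At an unadjusted p under 0.05 there were 5 of the 10, of which 1 was lower, beside 4112 of the 11092 genes tested. The median log2 fold change of the 10 genes was 0.31, with 8 values above 0 and 2 below. The values of the 2 groups did not overlap for 3 of the 10, beside 41.1% of all genes tested. In bulk RNA from sorted cells, fewer cells of a type and less RNA per cell cannot be told apart. The edgeR p-values set the difference between the groups against the spread between mice, which is estimated partly across genes.

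**Figure D1:**
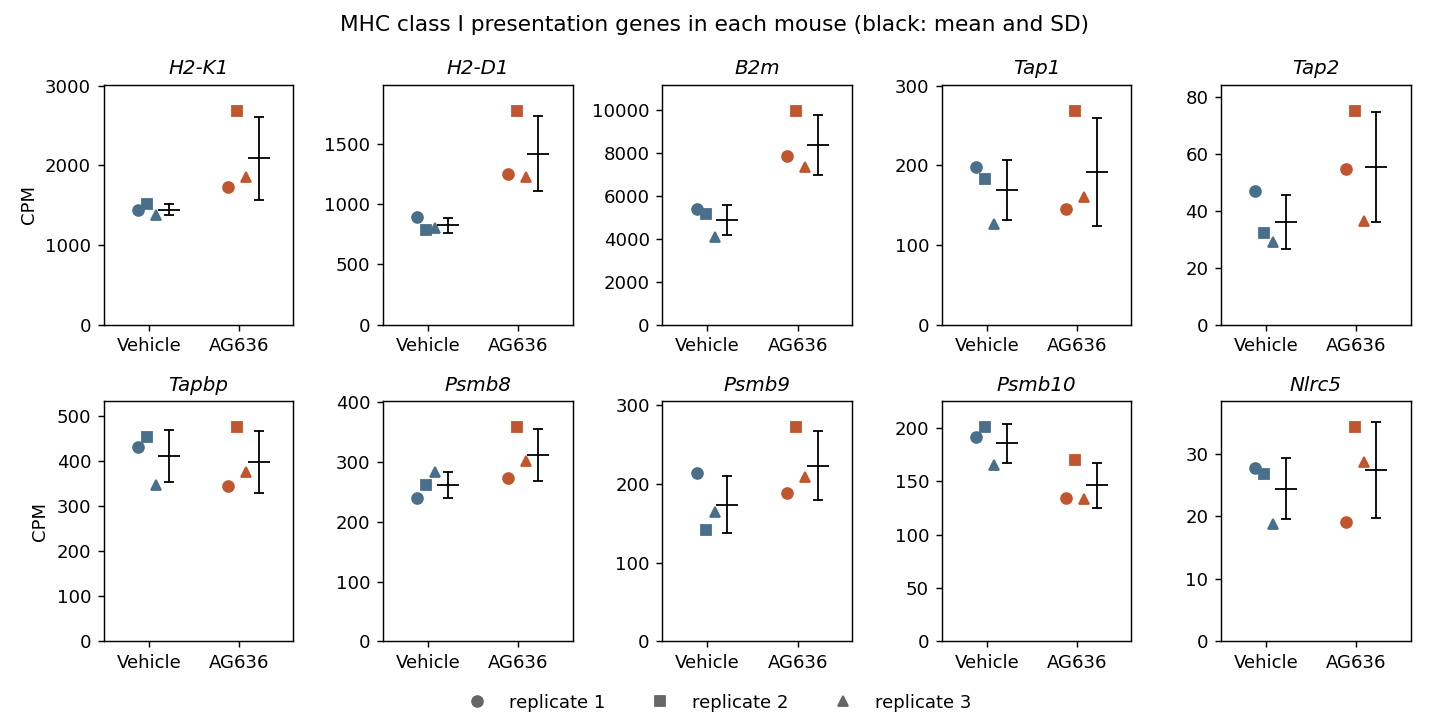
CPM of the 10 class I presentation genes (vertical axes, each from 0) in each of the 3 vehicle (blue) and 3 AG636 (orange) mice, with the replicate number as the symbol and the mean and SD in black. All 3 AG636 mice lie above all 3 vehicle mice for H2-K1, H2-D1 and B2m, and AG636 replicate 2 is the highest of the 6 mice for 9 of the 10 genes.

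The heavy chains and their partner rose with AG636. B2m, the invariant light chain of every class I molecule (chr2:122147686-122153083, plus strand), was at 5399, 5154 and 4066 CPM in the vehicle mice and at 7863, 9979 and 7335 CPM in the AG636 mice. Each AG636 mouse was above each vehicle mouse. The mean went from 4873 ± 709.8 to 8392 ± 1399 CPM (SD, n = 3 each), a 1.72-fold difference with a log2 fold change of 0.78 (SE 0.14, 95% interval 0.47 to 1.10), and its adjusted p was 0.00680 by edgeR's quasi-likelihood test. With 213417 reads over the 6 libraries, B2m made up 0.513%, 0.498% and 0.3998% of all counts in the vehicle mice and 0.799%, 1.025% and 0.762% in the AG636 mice. An exact permutation test of 3 against 3 cannot give a two-sided p below 0.1, and B2m gave 0.1.

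H2-D1, which encodes the heavy chain H-2D (chr17:35262730-35267499, plus strand), was at 893.8, 780.5 and 797.0 CPM with vehicle and at 1250, 1773 and 1222 CPM with AG636. The groups were again apart. H2-D1 rose 1.72-fold, with a log2 fold change of 0.78 (SE 0.15, 95% interval 0.45 to 1.11) and an adjusted p of 0.00861 in the edgeR fit. B2m and H2-D1 kept their direction and their call under all 13 alternatives, with log2 fold changes of 0.64 to 0.87 and 0.58 to 0.88.

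H2-K1, which encodes the heavy chain H-2K (chr17:33996017-34000333, minus strand), was at 1447, 1511 and 1382 CPM with vehicle and at 1729, 2689 and 1850 CPM with AG636. Its groups did not overlap, but AG636 replicate 2 stood well above the other 5 mice. The log2 fold change was 0.53 (SE 0.16, 95% interval 0.18 to 0.88), a 1.44-fold difference, with an adjusted p of 0.0380 by edgeR's quasi-likelihood test. This call rests on few mice. It was lost when any 1 of 5 libraries was left out, with an adjusted p of 0.0900 without vehicle replicate 1, 0.0871 without vehicle replicate 2, 0.0864 without vehicle replicate 3, 0.0707 without AG636 replicate 2 and 0.0582 without AG636 replicate 3. Without AG636 replicate 2 its log2 fold change was 0.31.

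The ratio of both heavy chains to each other and to B2m is free of the scaling of libraries. There were 1.62, 1.94 and 1.73 H2-K1 reads per H2-D1 read in the vehicle mice and 1.38, 1.52 and 1.51 in the AG636 mice, so that each AG636 mouse had a lower ratio than each vehicle mouse. This difference was not tested. B2m reads per read of the 2 heavy chains were 2.31, 2.25 and 1.87 with vehicle and 2.64, 2.24 and 2.39 with AG636, and these ranges overlapped. H2-K1 and H2-D1 together took 0.214% to 0.222% of all counts in the vehicle mice and 0.303%, 0.458% and 0.319% in the AG636 mice.

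Class I heavy chain genes are near copies of each other, and how the authors' counting treated reads that map to several places is not given in the sources used here. Over the last 500 bases of the longest GENCODE transcript, 0.443% of 50-base windows of H2-K1 also occurred in another gene, namely H2-D1. For H2-D1 it was 9.53%, most of them in genes outside the MHC, and for B2m and the other 7 genes it was 0. The rows of 16 heavy chain genes of the H2-K, H2-D, H2-Q, H2-T and H2-M groups were summed. Summing undoes a split of reads between these genes, but cannot restore reads that were not counted. The sum was 2722.9, 2624.3 and 2453 CPM in the vehicle mice and 3387.4, 5341 and 3544.6 CPM in the AG636 mice. It rose by a log2 fold change of 0.65 (SE 0.16) with an adjusted p of 0.0203, and H2-K1 and H2-D1 alone by 0.63 (SE 0.15) with 0.0177 (edgeR's quasi-likelihood test). These 2 genes, both called singly, made up most of the sum, with a vehicle mean of 2270.3 CPM beside 2600 CPM. The rise of the sum is therefore no separate result.

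The other class I heavy chain genes, most of them nonclassical, were described as a list of 18, of which 11 were tested and H2-Q1 and H2-Q2 had no read in any library. All 11 had a log2 fold change above 0, with a median of 0.82. In the list 2 were called higher and 0 lower, beside 10.3% and 11% of all genes tested. Of these 11, 9 had an unadjusted p under 0.05, beside 4112 of the 11092 genes tested. H2-T10 was at 2.496, 2.49 and 2.09 CPM with vehicle and 5.52, 8.04 and 6.04 CPM with AG636, with a log2 fold change of 1.45 (SE 0.31) and an adjusted p of 0.0130. H2-T22 was at 28.7, 25.9 and 27.2 CPM with vehicle and 43.8, 88.7 and 42.3 CPM with AG636 (log2 fold change 1.10, SE 0.27, adjusted p 0.0204 in the edgeR fit). The products of these 2 genes are known as ligands of gamma delta T cells. They share 59.4% and 59.2% of their end windows with each other, so their counts cannot be told apart fully. H2-T22 lost its call without vehicle replicate 2 (adjusted p 0.0742), and without AG636 replicate 2 its log2 fold change was 0.66 (adjusted p 0.0223). H2-T23, which encodes Qa-1, was at 2.14, 2.62 and 3.13 CPM with vehicle and 3.61, 4.95 and 7.36 CPM with AG636, but did not pass the test (log2 fold change 1.02, SE 0.37, adjusted p 0.0710). Without AG636 replicate 2, an alternative chosen after seeing the data, 3 of this list were called higher and the median was 0.62.

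**Figure D2:**
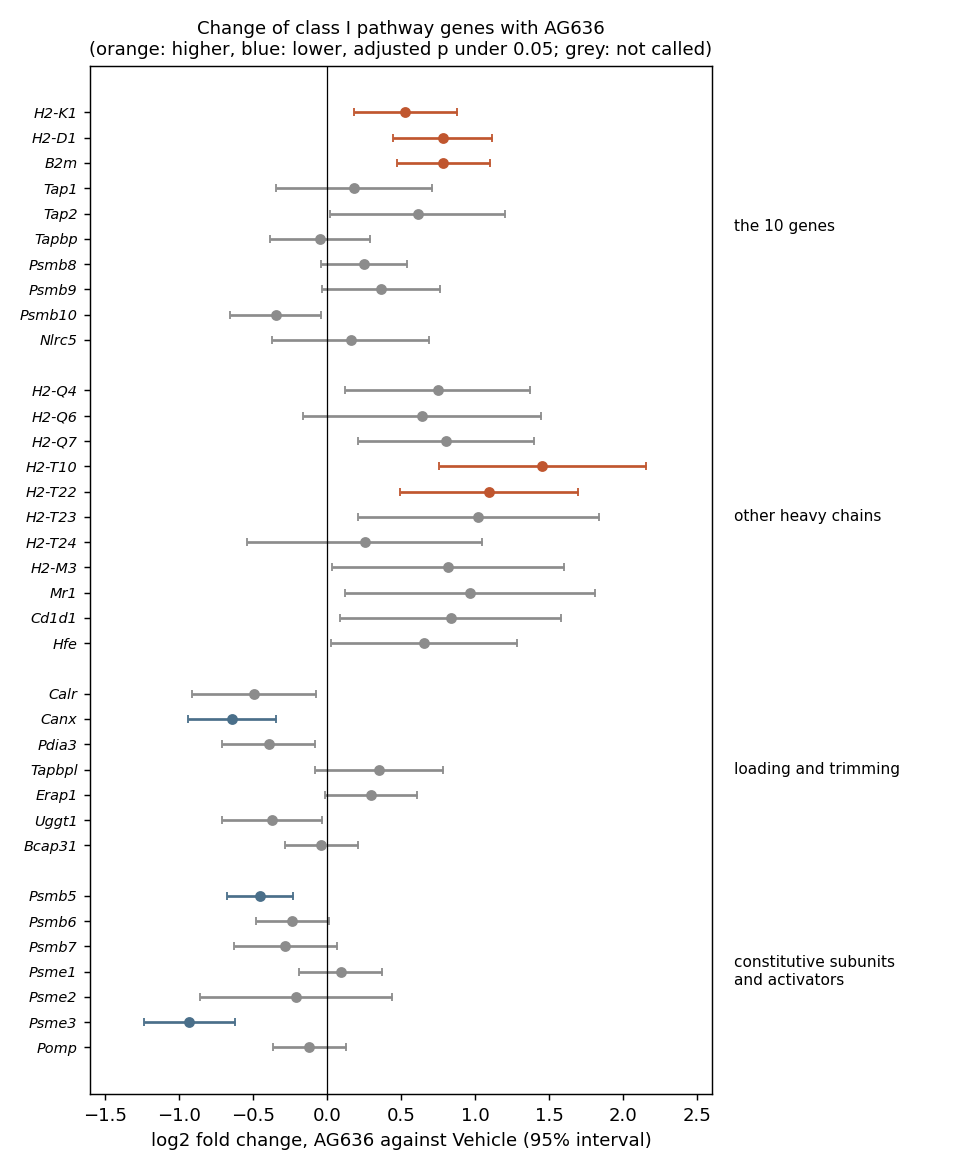
Log2 fold change of AG636 against vehicle (horizontal axis, points, with 95% intervals as bars) for the 10 genes, the other class I heavy chains, the loading and trimming genes, and the constitutive proteasome subunits and activators. Points for heavy chains and B2m lie to the right of 0, while those of the loading chaperones Calr, Canx and Pdia3 and of Psmb5 and Psme3 lie to the left.

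None of the transporter and tapasin genes passed the test. Tap1 (chr17:34187553-34197225, plus strand) was at 197.9, 182.3 and 127.0 CPM with vehicle and at 145.5, 268.7 and 160.8 CPM with AG636. The groups overlapped, with the highest value in AG636 replicate 2, and the log2 fold change was 0.18 (SE 0.24, 95% interval -0.35 to 0.71, adjusted p 0.618). Without that mouse it was -0.15.

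Tap2 (chr17:34203527-34216321, plus strand), the other chain of the transporter, was at 47.1, 32.3 and 29.3 CPM with vehicle and at 54.8, 75.3 and 36.4 CPM with AG636. AG636 replicates 1 and 2 were above all vehicle mice and replicate 3 was not. The log2 fold change of 0.61 (SE 0.27, 95% interval 0.02 to 1.204) did not pass with an adjusted p of 0.122. It was 0.33 without AG636 replicate 2, and the gene was called in 1 of 13 alternatives, the one without a filter on low counts (adjusted p 0.0134).

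Tapbp (chr17:33915899-33929292, plus strand), which encodes tapasin, the bridge between the transporter and the heavy chain, was at 432, 454.7 and 346.4 CPM with vehicle and at 344.3, 475.5 and 375.6 CPM with AG636. The groups covered much the same range. The log2 fold change was -0.05 (SE 0.15, adjusted p 0.851), and its interval of -0.38 to 0.29 leaves out a rise as large as the estimate for H2-D1 or B2m. The difference between Tapbp and those genes was not itself tested. Tapbp shares 149 exon bases with Zbtb22 on the same strand, a gene with 1467 reads beside 13474.

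A list of 7 other loading and trimming genes had 0 called higher and 1 lower, beside 10.3% and 11% of all genes tested. The median log2 fold change of the list was -0.37. Canx, which encodes the chaperone calnexin that holds new heavy chains, was at 590.3, 630.6 and 562.3 CPM with vehicle and at 436.9, 390.6 and 315.8 CPM with AG636. Every AG636 mouse was below every vehicle mouse, the log2 fold change was -0.64 (SE 0.13), and the adjusted p was 0.0116 in the edgeR fit. Calr, which encodes calreticulin of the loading complex, was at 1251, 1693 and 1801 CPM with vehicle and at 1373, 832 and 1164 CPM with AG636 (log2 fold change -0.49, SE 0.19, adjusted p 0.0857). Its ranges overlapped, and it was called lower only without a filter on low counts (adjusted p 0.000693) and without vehicle replicate 1 (adjusted p 0.0462). The remaining 5 genes, among them the disulfide isomerase Pdia3 (log2 fold change -0.39, adjusted p 0.0721) and the trimming peptidase Erap1 (0.30, adjusted p 0.148), were not called. H2-K1 reads per Calr read were 1.16, 0.892 and 0.767 with vehicle and 1.26, 3.23 and 1.59 with AG636. This ratio was not planned and was not tested. Its highest value came from AG636 replicate 2, the mouse with the highest H2-K1 and the lowest Calr.

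None of the 3 inducible proteasome subunits passed the test, and their log2 fold changes were 0.25, 0.36 and -0.35. Psmb8 (chr17:34197721-34201454, plus strand), which replaces Psmb5 in the immunoproteasome, was at 240.7, 261.7 and 283.3 CPM with vehicle and at 273.1, 358.6 and 302.6 CPM with AG636. The log2 fold change was 0.25 (SE 0.13, 95% interval -0.04 to 0.54, adjusted p 0.194), and the groups overlapped in 1 AG636 mouse. Without AG636 replicate 2 it was 0.14. Psmb9 (chr17:34181988-34187764, minus strand), which replaces Psmb6, was at 213.6, 142.2 and 165.1 CPM with vehicle and at 189, 272.4 and 208.8 CPM with AG636. Its log2 fold change of 0.36 (SE 0.18, 95% interval -0.04 to 0.77) had an adjusted p of 0.170, and was 0.20 without AG636 replicate 2 and 0.23 without vehicle replicate 2. Tap1 and Psmb9 share 212 exon bases on opposite strands at their starts.

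Psmb10 (chr8:105935735-105938444, minus strand), which replaces Psmb7, had the lowest log2 fold change of the 10 genes. It was at 191.3, 200.8 and 165.1 CPM with vehicle and at 134.4, 170.3 and 133.8 CPM with AG636, so that AG636 replicates 1 and 3 were below all vehicle mice. The log2 fold change was -0.35 (SE 0.14, 95% interval -0.65 to -0.04) and did not pass, with an adjusted p of 0.0972. Without AG636 replicate 2 it was -0.47 and was called lower, with an adjusted p of 0.0393 in edgeR's quasi-likelihood test.

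Of 7 constitutive subunit and activator genes, 0 were called higher and 2 lower, beside 10.3% and 11% of all genes tested. Their median log2 fold change was -0.23. Psmb5, the constitutive counterpart of Psmb8, was at 307.7, 323.7 and 310.5 CPM with vehicle and at 229.6, 229.7 and 229.0 CPM with AG636. The AG636 mice were nearly equal to each other, and Psmb5 fell by 0.45 on the log2 scale (SE 0.10, adjusted p 0.0146 in the edgeR fit). It missed the threshold without AG636 replicate 1 (adjusted p 0.0517) and without AG636 replicate 3 (0.0556). Psme3, which encodes the nuclear activator PA28 gamma, was at 236.8, 199.1 and 183.7 CPM with vehicle and at 119.4, 109.3 and 96.8 CPM with AG636. It fell by 0.93 on the log2 scale (SE 0.14, adjusted p 0.00400). The interferon-inducible activator genes Psme1 (log2 fold change 0.09, adjusted p 0.632) and Psme2 (-0.21, adjusted p 0.635) did not pass, nor did Psmb6 (-0.23, adjusted p 0.151) and Psmb7 (-0.28, adjusted p 0.220). Psme2 had 647 reads in all, beside 9828 for Psme1, and its vehicle mice spread widely, at 29.1, 12.95 and 22.99 CPM.

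Within each library, reads of an inducible subunit were set against those of the constitutive subunit it replaces. Psmb8 reads per Psmb5 read were 0.782, 0.809 and 0.913 in the vehicle mice and 1.19, 1.56 and 1.32 in the AG636 mice. The groups were apart, the mean difference was 0.70 on the log2 scale, and the exact two-sided permutation p was 0.1, the smallest it can be, or 0.3 adjusted over the 3 pairs. Psmb9 reads per Psmb6 read were 0.839, 0.483 and 0.644 with vehicle and 0.816, 1.204 and 0.921 with AG636 (difference 0.60, exact permutation p 0.2, adjusted 0.3). Psmb10 reads per Psmb7 read were 1.05, 1.40 and 1.09 with vehicle and 1.01, 1.11 and 1.26 with AG636 (difference -0.06, exact permutation p 0.7, adjusted 0.7). No pair passed the adjustment. Leaving out single mice kept the Psmb8 difference between 0.59 and 0.79, and the Psmb9 difference between 0.40 without vehicle replicate 2 and 0.79 without vehicle replicate 1, while that of Psmb10 changed sign without vehicle replicate 2 (0.07) and without AG636 replicate 1 (0.01).

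**Figure D3:**
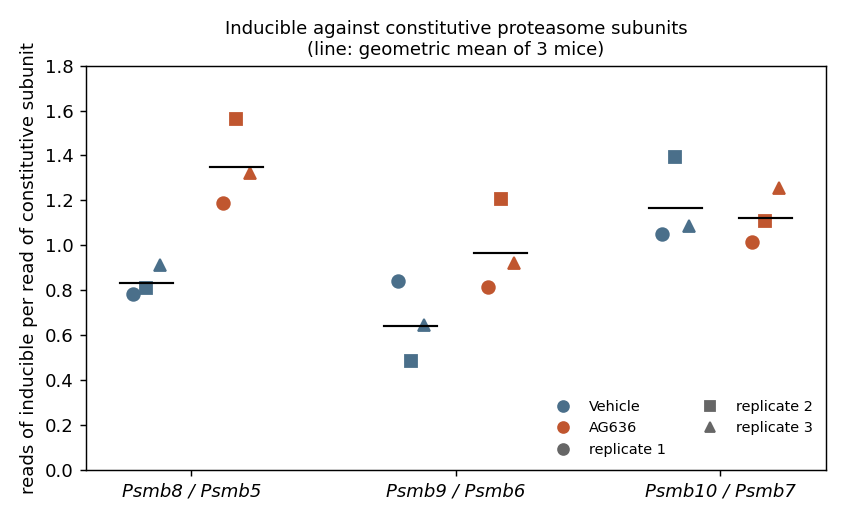
Reads of each inducible proteasome subunit per read of the constitutive subunit it replaces (vertical axis, from 0) in each vehicle (blue) and AG636 (orange) mouse, with the replicate number as the symbol and the geometric mean of 3 mice as a line. For Psmb8 over Psmb5 the AG636 mice, at 1.19 to 1.56, lie above the vehicle mice, at 0.782 to 0.913, and the other 2 ratios overlap.

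Nlrc5 (chr8:94434356-94527272, plus strand), the transactivator, had the fewest reads of the 10 genes, 858 in all. It was at 27.6, 26.8 and 18.8 CPM with vehicle and at 19.1, 34.2 and 28.7 CPM with AG636. The ranges overlapped, and the log2 fold change was 0.16 (SE 0.24, 95% interval -0.37 to 0.69, adjusted p 0.663). Without AG636 replicate 2 it was -0.03.

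Among 18 transcriptional regulators linked to class I genes, 1 was called higher and 0 lower, below the 10.3% and 11% of all genes tested. Their median log2 fold change was 0.02. The one called was Irf2, an interferon regulatory factor that binds the interferon response type of site. It was at 51.2, 53.0 and 43.0 CPM with vehicle and at 72.2, 82.5 and 65.9 CPM with AG636 (log2 fold change 0.58, SE 0.15, adjusted p 0.0217). Its call was lost without vehicle replicate 3 (adjusted p 0.0566), AG636 replicate 1 (0.0617) or AG636 replicate 2 (0.0546). Irf1, which activates class I promoters after interferon, was at 123, 94.3 and 98.2 CPM with vehicle and 98.6, 106 and 142.3 CPM with AG636 (log2 fold change 0.14, SE 0.17, adjusted p 0.584). Rfx5, a subunit of the complex that recruits Nlrc5, had a log2 fold change of 0.27 (SE 0.19, adjusted p 0.336).

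Of 9 interferon receptor and signalling genes, 1 was called higher and 1 lower, near the 10.3% and 11% of all genes tested. Their median log2 fold change was 0.25, or 0.04 without AG636 replicate 2. Ifngr1, the ligand-binding chain of the interferon gamma receptor, fell from 142 ± 20.9 to 93.6 ± 10.5 CPM (SD, n = 3), with a log2 fold change of -0.60 (SE 0.15) and an adjusted p of 0.0193 in the edgeR fit. Ifnar2, a chain of the type I interferon receptor, went from 52.0 ± 3.83 to 72.8 ± 10.1 CPM (log2 fold change 0.48, SE 0.15, adjusted p 0.0411 in edgeR's quasi-likelihood test). Ifngr1 was not called without vehicle replicate 2 (adjusted p 0.0736) or AG636 replicate 1 (0.0606). Ifnar2 was called only in 1 of the 6 fits that left out a mouse, the one without AG636 replicate 1, and had adjusted p-values up to 0.137 in the rest.

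Some of the mouse-to-mouse spread was common to the class I genes. AG636 replicate 2 was the highest of the 6 mice for 9 of the 10 genes, and the median over the 10 genes of its log2 level minus the vehicle mean was 0.68. The same median was 0.10 for AG636 replicate 1 and 0.23 for AG636 replicate 3. Among vehicle mice it was 0.14, 0.08 and -0.20, and vehicle replicate 3 was the lowest of the 6 for 5 genes. The 10 genes together took 0.864%, 0.846% and 0.726% of all counts with vehicle and 1.219%, 1.653% and 1.211% with AG636. Without AG636 replicate 2, 2 of the 10 genes were called higher (H2-D1, log2 fold change 0.58, adjusted p 0.0101, and B2m, 0.64, adjusted p 0.0108) and Psmb10 was called lower, and the median of the 10 was 0.17. Over all 11336 genes tested in that fit, 1074 were called higher and 1171 lower.

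Genes that interferon gamma is known to induce varied among mice of both groups. The summed level of 9 interferon-induced GTPase genes was 370.8, 236.4 and 147.9 CPM with vehicle and 149.7, 377.2 and 208.4 CPM with AG636. Vehicle replicate 1 and AG636 replicate 2 were alike and high, and 0 of the 8 tested genes were called. For Iigp1, one of these GTPases, the counts were 215, 140 and 11 with vehicle and 6, 273 and 53 with AG636. The summed level of 7 class II presentation genes was 108.8, 151.2 and 93.4 CPM with vehicle and 58.6, 517.8 and 100.0 CPM with AG636, with 0 of 6 called. AG636 replicate 2 alone was high. Without AG636 replicate 2 the median log2 fold change of the GTPases turned from 0.16 to -0.38. That of the class II genes turned from 1.07 to -0.59. In the edgeR fit of all 6 mice, both lists also had 0 genes at an unadjusted p under 0.05, beside 4112 of the 11092 genes tested. Whether these lists and the class I genes are linked was not tested.

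**Figure D4:**
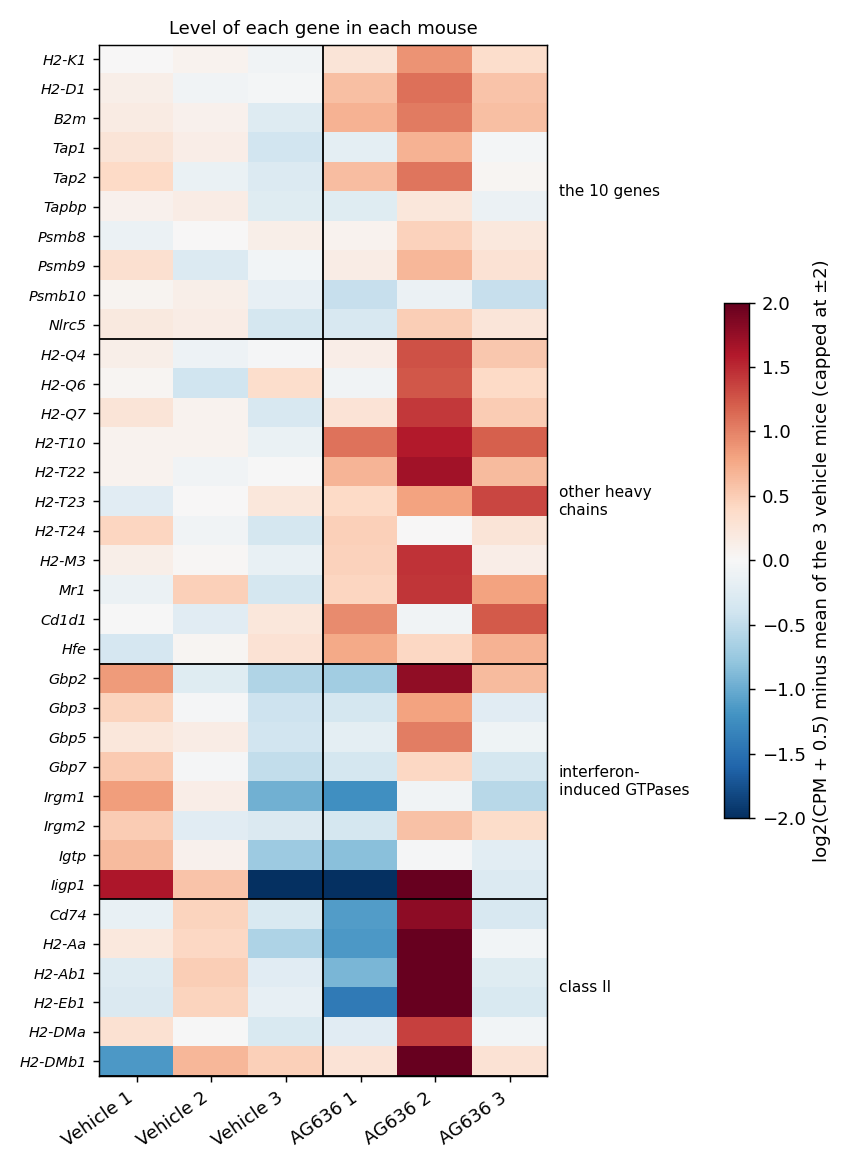
Level of each gene (rows) in each mouse (columns) as log2(CPM + 0.5) minus the mean of the 3 vehicle mice, with red higher and blue lower, capped at 2 in either direction. H2-K1, H2-D1 and B2m are red in all 3 AG636 columns, whereas most class II genes are deep red in AG636 replicate 2 alone. The interferon-induced GTPases are red in vehicle replicate 1 as well as, for most of them, in AG636 replicate 2.

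Markers of cell types were read beside these results. The progenitor marker Kit did not pass the test (log2 fold change 0.15, adjusted p 0.5502), and Ptprc, the CD45 gene, was higher with AG636 (0.65, adjusted p 0.0142 in the edgeR fit). The 7 progenitor markers summed to 1653 to 3461 CPM with vehicle and 1270 to 3197 CPM with AG636. The largest part of this sum in each mouse was Mpo, at 1252, 2772 and 2771 CPM with vehicle and 2022, 618 and 1704 CPM with AG636. Mpo was lowest in AG636 replicate 2 and did not pass (log2 fold change -0.65, adjusted p 0.266 in the edgeR fit). The other 6 markers had log2 fold changes above 0. T cell markers summed to 0.713 to 6.41 CPM and 0 of 6 had enough reads to be tested. B cell markers summed to 13.4 to 26.7 CPM with vehicle and 28.9 to 43.7 CPM with AG636, with 0 of 2 tested genes called and Ms4a1 near 0. Of 5 NK cell markers, which summed to 200.8 to 330.7 CPM with vehicle and 258.4 to 498.7 CPM with AG636, 2 were tested and 0 called, with nearly all reads in Nkg7 and Ncr1 near 0. Dendritic cell and macrophage markers summed to 14.98, 14.0 and 16.3 CPM with vehicle and 21.2, 39.2 and 38.9 CPM with AG636, with 1 of 4 tested genes (C1qb) called higher and Siglech and Xcr1 near 0. Mature neutrophil markers summed to 997, 2050 and 2315 CPM with vehicle and 5772, 2997 and 2794 CPM with AG636. Here 5 of 6 were called higher, beside 10.3% of all genes tested, with a median log2 fold change of 1.34. Erythroid markers summed to 1126 to 3028 CPM with vehicle and 1536 to 2484 CPM with AG636. The neutrophil sum follows S100a8 and S100a9, which were highest in AG636 replicate 1, as Ngp was by a small margin. Ly6g, Camp and Retnlg were highest in AG636 replicate 2, the mouse with the highest level of 9 of the 10 class I genes. The study's results give the sort gate of these cells as cKit+ CD11b-, while its RNA-seq methods name cKit-high CD11b-low AML cells. Such gates are meant to leave out mature neutrophils and most macrophages. Itgam, the CD11b gene, was at 12.1, 18.3 and 27.0 CPM with vehicle and at 60.1, 31.3 and 41.2 CPM with AG636 (log2 fold change 1.21, SE 0.31, adjusted p 0.0219 in the edgeR fit). Whether these marker transcripts came from other cell types or from the leukemia cells was not tested, and neither was the part of other cell types in the class I results.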

How the data were processed

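RNA of sorted I1DN cells from 6 mice was profiled with a 3′ end kit. The authors deposited raw read counts per gene. Per the labels, reads were handled with cutadapt 1.9.1, HISAT2 2.0.4 (mm10, GRCm38) and featureCounts of Subread 1.5.0-p3, while the paper's methods name other versions for some of these. Strand, annotation and multimapping settings are not given in the sources used here. GENCODE gave a symbol to 54723 of 54838 genes, 98.75% of them with the same start and end. The number of per-sample columns left unused was 0, and the gene length column was not used.

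The analysis used edgeR 4.0.16 in R 4.3.3: filterByExpr (minimum count 10, minimum total 15), TMM scaling, quasi-likelihood test of 3 against 3 mice, Benjamini-Hochberg adjustment over all genes tested and a threshold of 0.05. SE is the log2 fold change over the square root of F. CPM use scaled library sizes. The median SE was 0.20. The script was tested on simulated data. Groups and replicate numbers came from the labels. Single genes and subunit ratios also had exact two-sided permutation tests. The alternatives were DESeq2 1.42.0, limma-voom (limma 3.58.1), other scalings and filters, a replicate block and leaving out each mouse. Floors of 3 counts cover counting error only.

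The 10 genes and all lists were chosen with earlier results of these data known. The text names the 10 genes, genes of each pathway list past the threshold (at most 5 by lowest p) and Psmb5, Psmb6, Psmb7, Psme1, Psme2, Irf1, Rfx5, Calr and H2-T23 whatever their values, except for a gene of that rule that is not reported here. Pdia3, Erap1, Iigp1, Zbtb22, H2-Q1, H2-Q2, Itgam and the markers were named after their values were seen.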

Additional observations from a re-analysis of the deposited data

How the results depend on the processing

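Leaving out 1 mouse at a time moved the number of genes called from 2368 to between 851 and 2311, the number higher from 1146 to between 399 and 1074, and the number lower from 1222 to between 452 and 1298. The lowest counts came without AG636 replicate 3. The same fits called 2 or 3 of the 10 class I genes higher and 0 or 1 lower. At an adjusted p under 0.01 there were 556 genes, 231 higher and 325 lower, with H2-D1 and B2m still called. With no scaling beyond library size, 61.9% of calls were higher, compared with 48.4% under TMM (1483 higher and 913 lower), the median of all genes was 0.12, and Tapbp turned to 0.046. Leaving out single mice gave Tapbp values of -0.19 to 0.046, Tap1 values of -0.15 to 0.34, Nlrc5 values of -0.035 to 0.36 and Psmb10/Psmb7 differences of -0.14 to 0.069. For genes of the pathway lists these fits were chosen after seeing the data, and the same range was -0.020 to 0.14 for Psme1, -0.50 to 0.053 for Psme2 and -0.039 to 0.25 for Irf1. None of these genes was called in the comparison of all 6 mice, and the cause of each turn was not tested. A replicate block gave 1960 calls (914 higher and 1046 lower) and the same counts for the class I genes, 3 higher and 0 lower. Mice with the same number are different animals, and their deviations from the group means correlated at -0.06, -0.18 and 0.22 over the 3 numbers, so that the numbers were not treated as pairs. At these depths the counts limit mainly genes near the floor of 3 counts, such as the T cell markers.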
